A study of Mus musculus with 6 samples.

Results

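The genes described here are 10 genes of bone morphogenetic protein (BMP) signalling in mouse lung endothelial cells: the ligand genes Bmp4 and Bmp6, the extracellular modulator gene Bmper, the receptor gene Bmpr2, the inhibitory Smad genes Smad6 and Smad7, and the target genes Id1, Id2, Id3 and Id4. They were found by symbol, and all 10 of 10 were among the 53735 genes of the deposited table. RNA was sequenced in 6 libraries of primary lung endothelial cells, 4 from ZMPSTE24 knockout mice (KO1 to KO4) and 2 from wild type mice (WT1 and WT2). ZMPSTE24 is the protease that cleaves farnesylated prelamin A on its way to mature lamin A, and mice without it are used as a progeria model. In both genotypes cells were picked up by beads carrying CD31 and ICAM2 antibodies, cultured until confluent without passage and left untreated. The labels name 2 cohorts of mice but place no library in either, and they do not say whether every library had its own animal. The p-values therefore rest on a spread among libraries that could be technical in part. Age, sex and the deleted stretch of the gene are not given in the sources used here.

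BMP ligands bind pairs of type I and type II receptors on the cell surface, and the activated receptors phosphorylate Smad1, Smad5 and Smad9, which enter the nucleus with Smad4. In endothelium the pathway controls vessel growth and quiescence, and BMPR2 is the gene most often mutated in heritable pulmonary arterial hypertension in humans. The Id proteins are helix-loop-helix proteins without a DNA-binding region that hold E proteins such as Tcf3, Tcf4 and Tcf12 away from DNA; Id1, Id2 and Id3 are classical BMP targets. Smad6 and Smad7 are induced by the same signals and act back on the receptors as inhibitors.

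The libraries held 32699024 to 45613685 reads. KO1 and WT1 stood apart from the other 4 libraries on the first principal component of all tested genes, which held 77.3% of the variance; they are called the first library set here, and KO2, KO3, KO4 and WT2 the second. The labels define no such sets. Zmpste24 itself had 5079, 3764, 3599 and 3720 normalized counts (reads divided by the authors' size factor of each library) in KO1 to KO4, and 5503 and 4148 in WT1 and WT2, so counts over the whole gene do not check the genotype labels. The 10 endothelial markers examined had reads in all 6 libraries, with a lowest value of 819 normalized counts, for Vwf in KO4. Their summed counts were 35434 to 96509 in the knockout libraries, against 162547 in WT1 and 52560 in WT2, while those of 8 fibroblast markers were 402369 to 466437 in the knockout libraries, against 412279 and 473427 in wild type. In such bulk cultures fewer cells of a type and less RNA per cell cannot be told apart.

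The 10 genes covered a wide range of levels, which were compared as reads divided by the gene's annotated exon length and by the library's total reads (RPKM). The length counts every annotated exon of the gene, whether or not these cells use it. Id3 was the highest of them in every library, at a mean of 129 RPKM (96.7 to 181 over the 6 libraries). Bmper followed at 74.7 RPKM and Id1 at 58.1, and their ranges overlapped. Id2 averaged 26.4 RPKM, Bmp4 14.4, Bmpr2 10.01, Smad7 8.24, Smad6 5.18 and Bmp6 4.48, and neighbours in this order had overlapping ranges. Id4 was the lowest in all 6 libraries, at 0.883 RPKM (0.327 to 1.76), apart from Bmp6. Within the Id family the order Id3, Id1, Id2, Id4 was the same in all 6 libraries, with ranges that did not overlap.

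**Figure D1:**
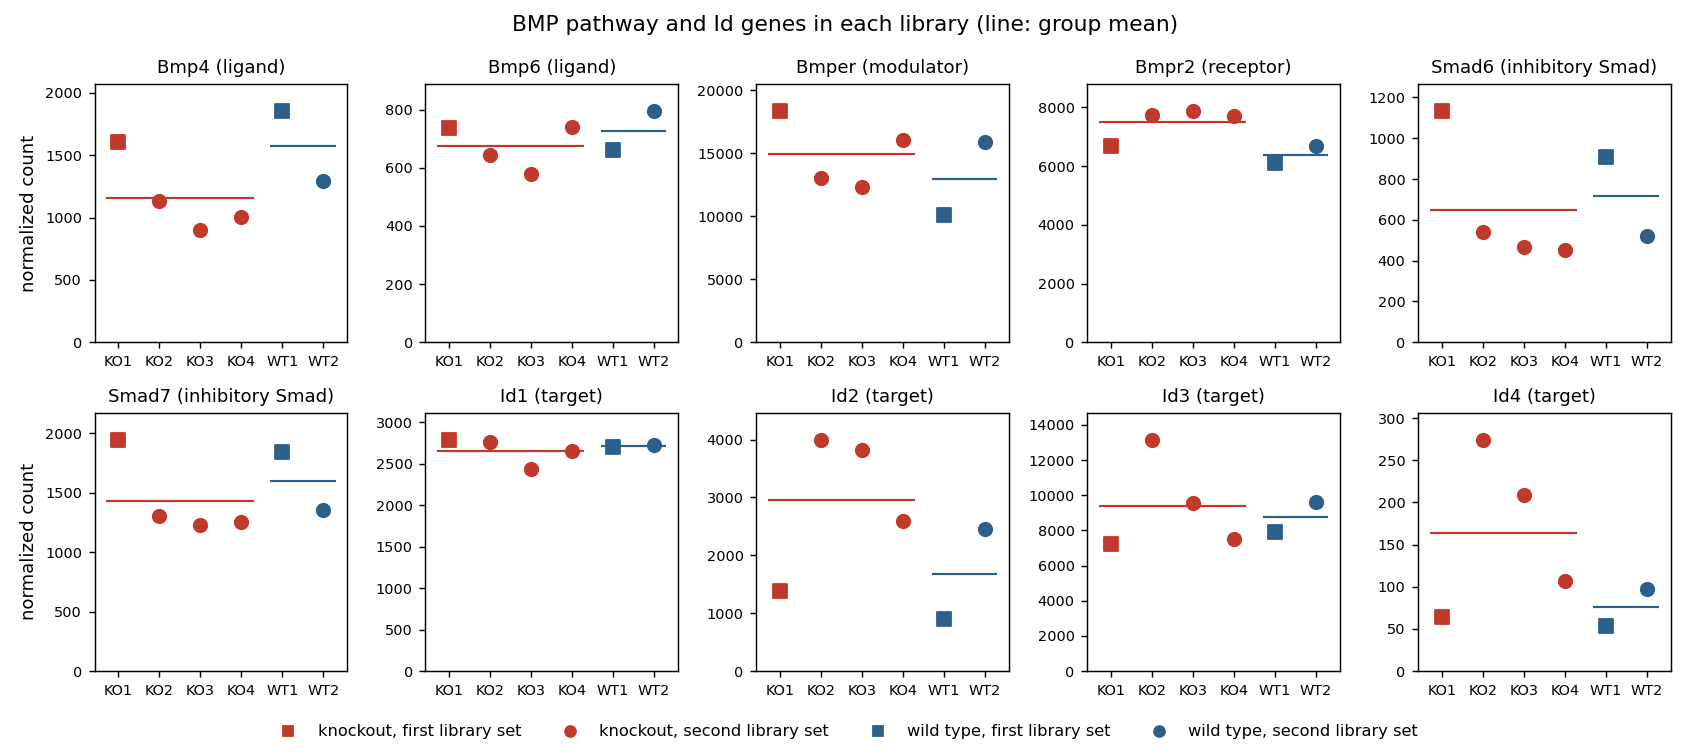
Normalized counts of each member (vertical axis of each panel, from 0) in the 4 knockout and 2 wild type libraries; squares are the first library set, circles the second, and lines the group means. Id1 stays between 2437 and 2781 counts in all 6 libraries, and Bmpr2 is the one panel in which every knockout library lies above both wild type libraries.

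The main question was whether these genes differed between knockout and wild type cells, and 0 of the 10 passed the test. The test was limma on log2(normalized count + 1) over 15229 genes, with Benjamini-Hochberg adjustment over all of them and a threshold of 0.05; it called 0.00657% of tested genes. Of the 10 genes, 0 reached an unadjusted limma p under 0.05, against 0.939% of all tested genes. In a limma fit with an added term for library set, called the set-adjusted fit here, 0 of the 10 passed as well (0.00657% of all tested genes). In that fit 3 of the 10, Id2, Bmp4 and Bmpr2, reached an unadjusted p under 0.05, against 3.51% of all. Since the sets were defined from these same values, p-values of set-adjusted fits can be too small and their intervals too narrow. EdgeR and DESeq2 on the recovered reads also called 0 of the 10; edgeR called 0.00657% of all tested genes and DESeq2 0.046%, and their set-adjusted fits 0.0131% and 0.328%. The median log2 difference of the 10 was 0.01, and that of all tested genes 0.00074.

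**Figure D2:**
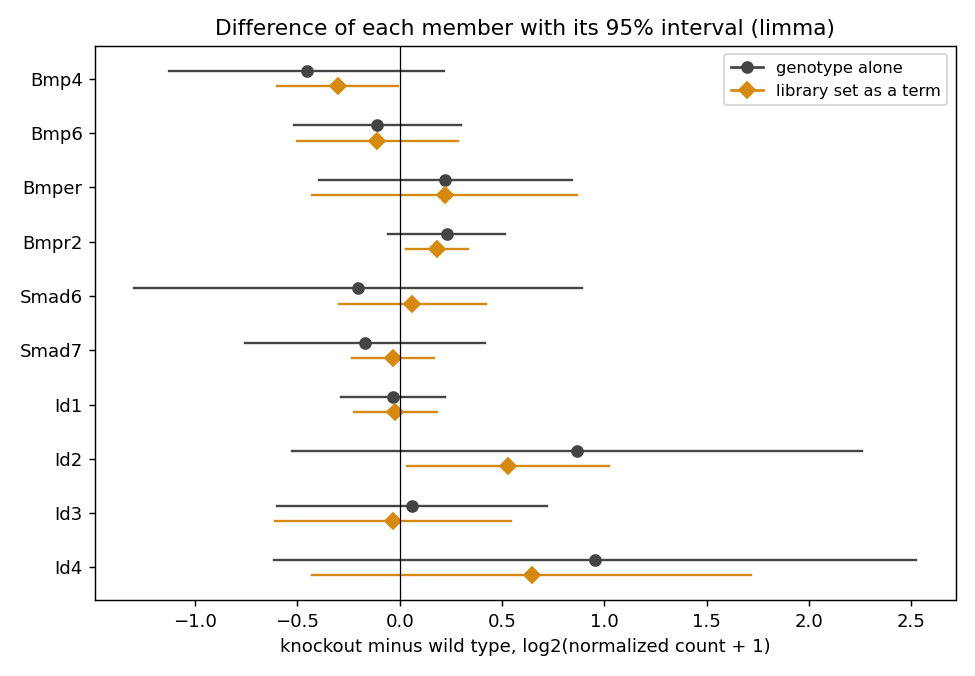
Difference between knockout and wild type libraries for each member, in log2(normalized count + 1), with its 95% interval from limma, fitted with genotype alone (grey circles) and set-adjusted (orange diamonds). With genotype alone all 10 intervals include 0, and that of Id1 is narrow (−0.29 to 0.22) and those of Id2 and Id4 wide. Set-adjusted, the intervals of Id2, Bmp4 and Bmpr2 exclude 0, without adjustment for the number of genes tested. The sets were defined from the same values, so the set-adjusted intervals can be too narrow.

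Among the ligand genes, Bmp4 had lower values in each knockout library than in the wild type library of its set, without passing the test. Bmp4 (chromosome 14, 46383520 to 46390669, minus strand, GRCm38) encodes a ligand that endothelial and mesenchymal cells secrete. Bmp4 had 1601, 1129, 897 and 1005 normalized counts in KO1 to KO4, against 1851 in WT1 and 1296 in WT2. The groups overlapped, since KO1 lay above WT2. The log2 difference of Bmp4 was −0.45 ± 0.27 (SE, limma adjusted p = 1.00), and −0.30 ± 0.12 (SE, limma adjusted p = 0.999) in the set-adjusted fit. Without WT1 the unadjusted value of Bmp4 was −0.20, and without WT2 it was −0.71. A GENCODE gene on the opposite strand, Gm15217, shares 89 nt of exon with Bmp4 and was not analysed here.

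Bmp6 (chromosome 13, 38345107 to 38500302, plus strand) encodes a ligand known for its endothelial production in the liver, where it controls iron balance. It had 736, 643, 580 and 740 normalized counts in KO1 to KO4, against 662 in WT1 and 794 in WT2, and the groups overlapped. The log2 difference was −0.11 ± 0.17 (SE, limma adjusted p = 1.00). Exons of Bmp6 share 224 nt with Txndc5 on the opposite strand, and Txndc5 had 14552 to 18128 counts in the knockout libraries, against 17692 and 15557 in wild type. The sources used here do not say whether reads were counted by strand, so the level of Bmp6 is uncertain.

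Bmper (chromosome 9, 23223076 to 23485200, plus strand) encodes a secreted protein that binds BMPs and can strengthen or block them. Bmper did not pass either, and the sign of its difference from the wild type of the set varied among knockout libraries. Bmper had 18320, 13057, 12311 and 16080 normalized counts in KO1 to KO4, against 10088 in WT1 and 15857 in WT2. KO1 was the highest and WT1 the lowest of the 6 libraries, and the groups overlapped. The log2 difference was 0.22 ± 0.25 (SE, limma adjusted p = 1.00), but it was 0.86 between KO1 and WT1 and −0.28, −0.37 and 0.02 between KO2, KO3 and KO4 and WT2. In the second set alone it was −0.21 ± 0.19 (SE), and without WT1 −0.10. The summed counts of 5 mesothelial markers were 61241 in KO1 against 26485 in WT1, and 12102, 8550 and 16269 in KO2 to KO4 against 16682 in WT2. Those of 7 lung epithelial markers were 2856 in KO1 against 2080 in WT1, and 953, 941 and 2013 in KO2 to KO4 against 2006 in WT2. Single epithelial markers were mixed: 3, 4, 5 and 5 of the 7 lay above the wild type of the set in KO1 to KO4. Sftpc, Sftpb and Scgb1a1 were at 0 in KO1. The part of either marker list in the values of Bmper was not tested.

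The receptor gene Bmpr2 was the single member whose groups did not overlap, but the difference was small and did not pass the test. Bmpr2 (chromosome 1, 59763400 to 59879014, plus strand) encodes the type II receptor of BMPs. It had 6687, 7737, 7862 and 7689 normalized counts in KO1 to KO4, against 6095 in WT1 and 6680 in WT2. The lowest knockout library, KO1, lay just above the higher wild type library, WT2. The means were 7494 ± 543 (SD, n = 4) in knockout and 6387 ± 414 (SD, n = 2) in wild type libraries, which differed by log2 0.23 ± 0.12 (SE, limma adjusted p = 1.00) with a 95% interval of −0.06 to 0.52. Between each knockout library and the wild type of its set the log2 difference of Bmpr2 was 0.13, 0.21, 0.24 and 0.20, the last 3 of which share WT2. In the set-adjusted fit it was 0.18 ± 0.06 (SE, limma adjusted p = 0.999; DESeq2 adjusted p = 0.566). Of all tested genes, 2.36% had every knockout library above both wild type libraries, which stands beside 1 of the 10 members; the count of 1 is given as a description.

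The inhibitory Smad genes separated the library sets, and a difference between genotypes was not detectable. Smad6 (chromosome 9, 63953076 to 64022059, minus strand) encodes the inhibitor that acts mainly on BMP receptors, and it had 1132, 538, 466 and 450 normalized counts in KO1 to KO4, against 909 in WT1 and 521 in WT2. Smad7 (chromosome 18, 75367529 to 75395935, plus strand) encodes the inhibitor of both BMP and TGF-beta receptors, and it had 1942, 1303, 1230 and 1259 counts in KO1 to KO4, against 1839 in WT1 and 1360 in WT2. In both genes KO1 and WT1 were the highest libraries, as in 30.7% of all tested genes, from which the sets were defined. The log2 differences were −0.20 ± 0.45 for Smad6 and −0.17 ± 0.24 for Smad7 (SE, limma adjusted p = 1.00 for each). Set-adjusted, they were 0.06 ± 0.14 for Smad6, where the sign is the opposite one, and −0.03 ± 0.08 for Smad7.

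Of the Id genes, Id1 had nearly the same value in every library. Id1 (chromosome 2, 152736251 to 152737410, plus strand), whose transcript is widely used as a readout of BMP signalling, had 2781, 2766, 2437 and 2648 normalized counts in KO1 to KO4, against 2703 in WT1 and 2728 in WT2. The highest library was 1.14 times the lowest. The means were 2658 ± 159 (SD, n = 4) in knockout and 2716 ± 17.8 (SD, n = 2) in wild type libraries. The log2 difference was −0.03 ± 0.10 (SE, limma adjusted p = 1.00) with a 95% interval of −0.29 to 0.22, and set-adjusted it was −0.02 ± 0.08. The standard deviation of Id1 over the 6 libraries was 0.070 on the log2 scale, against a median of 0.30 over all tested genes, and 3.83% of tested genes had a smaller one. The counting error of Id1 is about 2.05% in the library with the fewest reads of it. The 3 genes with profiles most like that of Id1, among 12754 genes with a mean of at least 50 counts and by the root mean square difference of centred log2 values over the 6 libraries, were Urb2 (0.023), Pigb (0.026) and Plpp6 (0.029).

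Id3, the highest of the family, varied among knockout libraries more than between genotypes. Id3 (chromosome 4, 136143497 to 136145755, plus strand) lies 15.05 Mb from Zmpste24 on the same chromosome. It had 7239, 13130, 9557 and 7528 normalized counts in KO1 to KO4, against 7920 in WT1 and 9591 in WT2. The knockout libraries held both the highest value, in KO2, and the lowest, in KO1. The log2 difference was 0.06 ± 0.27 (SE, limma adjusted p = 1.00), while the set-adjusted value, −0.03 ± 0.23, had the opposite sign.

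Id2 and Id4 had higher values in every knockout library than in the wild type library of its set, as did 10.1% of all tested genes. The 6 libraries were in the same order for both genes. Id2 (chromosome 12, 25093799 to 25097140, minus strand), an Id protein also known from lymphoid and myeloid cells, had 1390, 3989, 3818 and 2601 normalized counts in KO1 to KO4, against 908 in WT1 and 2452 in WT2. Id4 (chromosome 13, 48261228 to 48266026, plus strand), known from neural and mammary development, had 64.7, 274, 208 and 107 counts in KO1 to KO4, against 53.4 in WT1 and 97.9 in WT2. In both genes KO2 was the highest library, followed by KO3, KO4, WT2, KO1 and WT1, so the groups overlapped through KO1. How many tested genes share this order was not counted, and 32.7% of them had KO1 and WT1 below all other libraries. The log2 difference was 0.87 ± 0.57 for Id2 and 0.95 ± 0.64 for Id4 (SE, limma adjusted p = 1.00 for each). The set-adjusted difference was 0.53 ± 0.20 for Id2 and 0.65 ± 0.43 for Id4 (SE, limma adjusted p = 0.999 for each). Against the wild type of its set, Id2 differed by 0.61, 0.70, 0.64 and 0.09 in KO1 to KO4, and Id4 by 0.27, 1.47, 1.08 and 0.13. In both genes the difference was smallest in KO4. The size in the unadjusted fit rested on which wild type library was kept: it was 0.15 without WT1 and 1.58 without WT2 for Id2, and 0.52 without WT1 and 1.39 without WT2 for Id4.

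Id4 rested on 51 to 300 reads per library, and counting alone gives it an error of about 14% in WT1. Exons of Gm49291 and A330033J07Rik on the opposite strand share 171 nt and 82 nt with those of Id4; neither was analysed here, so the level of Id4 is uncertain too. Including Bmpr2, 3 of the 10 members lay above the wild type of their set in 4 of 4 knockout libraries and 1, Bmp4, lay below in 4 of 4. Over all tested genes these shares were 10.1% above and 10.8% below, and 3 of the 4 differences share WT2.

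Of the 10 genes, 5 separated the library sets. Id2 had 2452 to 3989 normalized counts in the second set and 908 and 1390 in the first, and the mean of the second set was 2.80 times that of the first. For Id4 the ratio of means was 2.91, while it was 0.484 for Smad6, 0.681 for Smad7 and 0.627 for Bmp4. The sets did not overlap in these genes, 2 with the first set below and 3 with it above. Such gaps were common: 32.7% of all tested genes had the first set below the second and 30.7% above it, as the sets were defined from these genes. Id1, Id3, Bmp6, Bmpr2 and Bmper had overlapping sets. By the same root mean square measure, Id1 and Bmp6 were each other's nearest member (0.12), as were Bmp4 and Smad7 (0.16) and Id2 and Id4 (0.28). Other tested genes lay nearer still: 2074 to Id1 than Bmp6 did and 284 to Bmp6 than Id1, 143 to Bmp4 than Smad7 and 1588 to Smad7 than Bmp4, and 181 to Id2 than Id4 and 68 to Id4 than Id2.

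**Figure D3:**
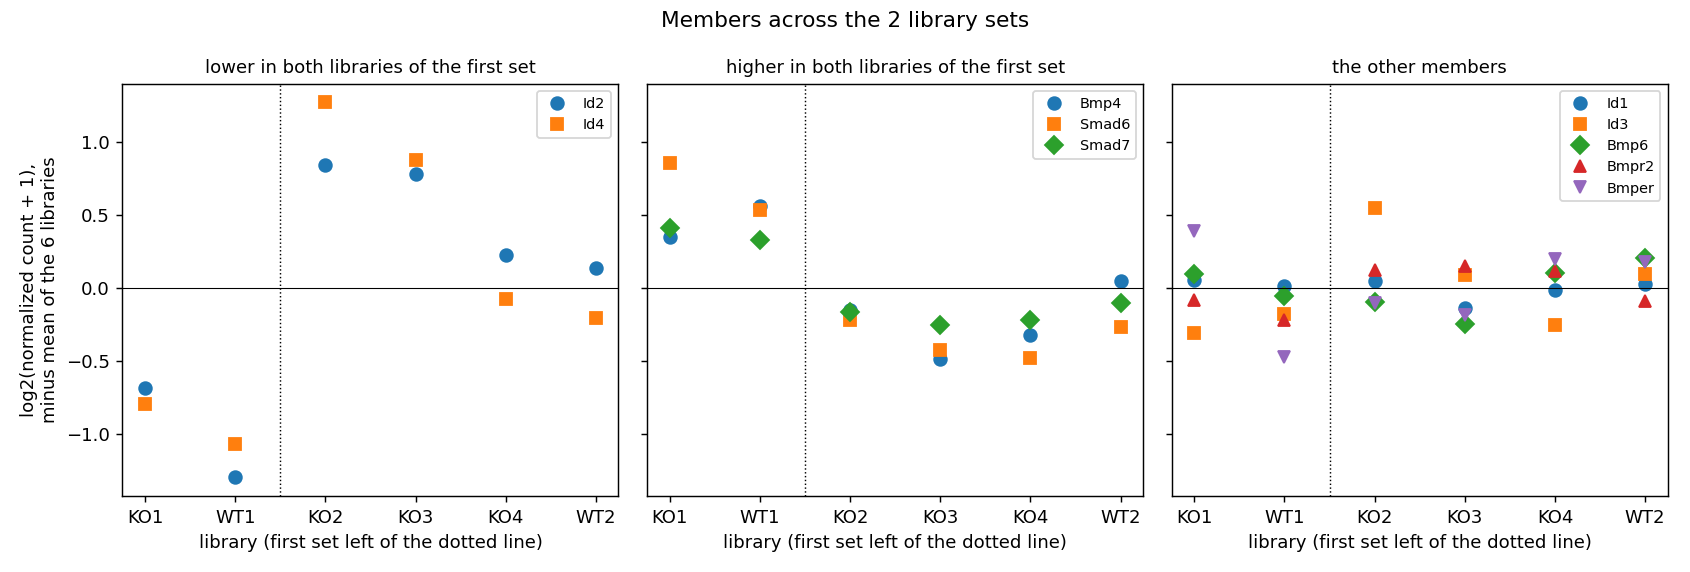
Each member's log2(normalized count + 1) minus its mean over the 6 libraries (vertical axis), with the first library set left of the dotted line and the second right of it. Id2 and Id4 are low in KO1 and WT1, Bmp4, Smad6 and Smad7 are high there, and the other members do not separate the sets.

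Summed counts of cell type markers also differed between the sets, which were defined from the values of all tested genes. The summed counts of 10 macrophage markers were 27556 to 44741 in the second set and 1410 and 1665 in the first. Those of 10 endothelial markers were 35434 to 57924 in the second set and 96509 and 162547 in the first, and those of 8 smooth muscle and pericyte markers 67090 to 126840 and 216246 to 238728. None of the macrophage, endothelial or smooth muscle markers was at 0 in any library. The part of these markers in the values of Id2, Id4, Bmp4, Smad6 and Smad7 was not tested.

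RefSeq promoter windows (GRCm38.p6) were found for 8 of the 10 members, all but Id1 and Smad7. The 250 bases before the RefSeq start were searched on both strands for GGCGCC, which BMP-activated Smads bind in the mouse Id1 promoter, for CAGAC, a core Smad-binding sequence, and for CANNTG, the E-box of E proteins. GGCGCC occurred 1 time each in the windows of Id2, Id4 and Bmpr2, and in 9.59% of 32851 windows of this length. CAGAC occurred in Id3 (2 matches) and Bmp6 (1 match) and in 42.2% of windows, and CANNTG in Id2, Bmp4 and Bmp6 and in 66.2%. The windows of Id2, Id3, Bmp6 and Bmpr2 overlap annotated exons of the same gene, so their matches may lie within the gene. The windows of Id4 (chr13:48260866-48261115, plus strand) and Bmp4 (chr14:46390670-46390919, minus strand) are shown because these genes lay on opposite sides between the library sets and because these windows lie outside annotated exons; capitals mark GGCGCC in Id4 and CANNTG in Bmp4, and no 2 matches share bases.
Id4: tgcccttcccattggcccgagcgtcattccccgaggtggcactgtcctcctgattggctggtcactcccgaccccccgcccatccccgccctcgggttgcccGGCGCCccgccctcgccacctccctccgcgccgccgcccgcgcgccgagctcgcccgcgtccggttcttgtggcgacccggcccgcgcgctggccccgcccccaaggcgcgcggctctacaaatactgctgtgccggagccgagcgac
Bmp4: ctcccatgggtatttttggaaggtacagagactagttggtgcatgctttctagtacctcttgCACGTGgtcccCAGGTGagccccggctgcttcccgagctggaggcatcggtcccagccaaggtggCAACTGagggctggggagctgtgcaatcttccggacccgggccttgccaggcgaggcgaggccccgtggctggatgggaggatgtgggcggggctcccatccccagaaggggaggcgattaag
A match describes these letters and shows no binding.

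The rest of the pathway was taken from a list of 57 further genes, of which 48 had a mean of at least 10 normalized counts. By limma, edgeR and DESeq2, fitted with genotype alone or set-adjusted, 0 of these 48 passed. These fits called 0.00657% to 0.328% of all tested genes. At an unadjusted limma p under 0.05 there was 1, Bmp7, against 0.939% of all tested genes. In the set-adjusted fit there were 2, Bmp7 and Eng, against 3.51% of all. The median log2 difference of the 48 was 0.03, with 25 above 0 and 23 below, and the set-adjusted median was −0.03.

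The ligand and receptor genes placed Bmp4, Bmp6 and Bmpr2 within a broad repertoire. Gdf6, which encodes a ligand of skeletal and vascular development, had 14343, 678, 1077 and 3447 normalized counts in KO1 to KO4, against 5610 in WT1 and 3029 in WT2. At a mean of 32.7 RPKM it was the highest ligand gene, above Bmp4 (14.4), Bmp2 (4.99) and Bmp6 (4.48), but its range of 4.75 to 97.2 RPKM overlapped with that of Bmp4. Bmp2 had 467 to 995 counts in the knockout libraries, against 1057 in WT1 and 287 in WT2. Gdf2 and Bmp10, which encode the circulating ligands made mainly in liver and heart, stood at 0.302 and 0.00091 RPKM; Bmp10 had 1 read, in WT1. Bmp7 was the single further gene with knockout libraries all below wild type among those tested, against 2.32% of all tested genes. It had 46.2, 17.3, 20.6 and 29.3 counts in KO1 to KO4 against 55.5 and 134 in WT1 and WT2, on 19 to 116 reads per library. The log2 difference of Bmp7 was −1.67 ± 0.55 (SE, limma unadjusted p = 0.0227, limma adjusted p = 1.00). Bmp7 was singled out after its values were seen.

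**Figure D4:**
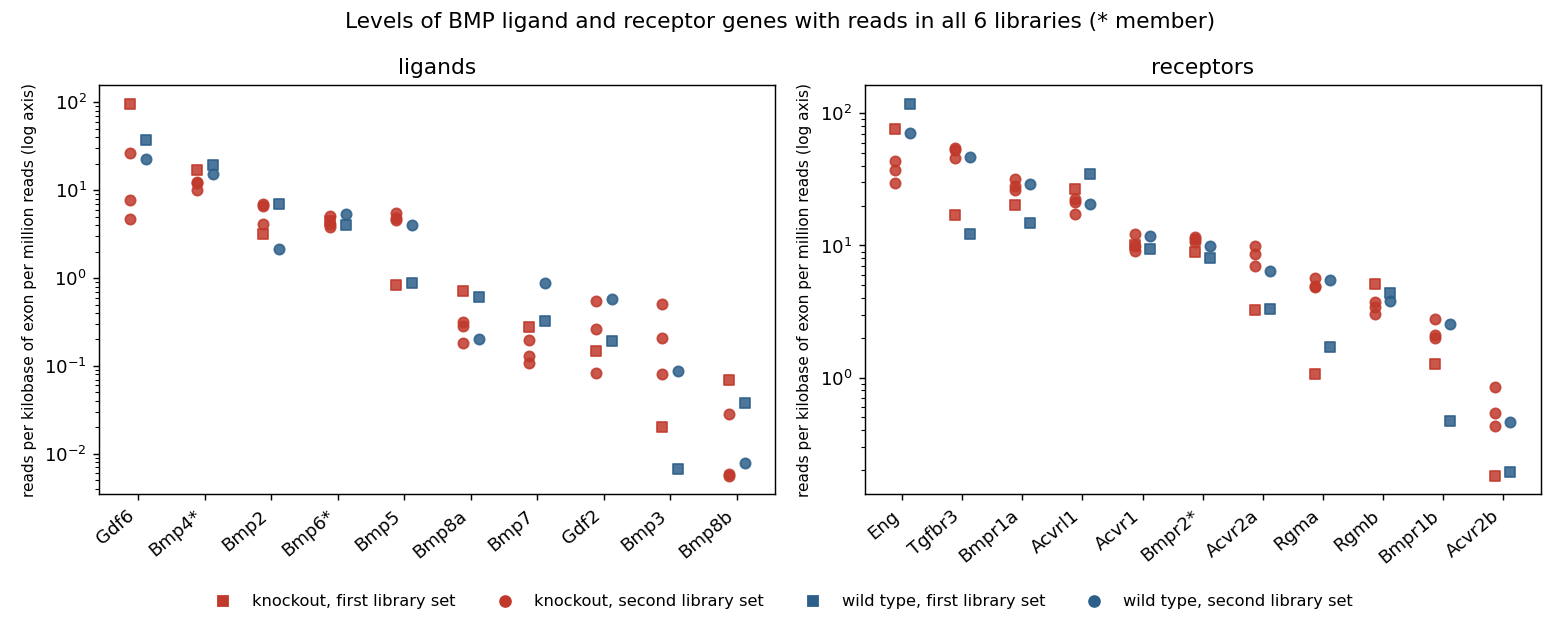
Levels of the ligand genes (left) and receptor genes (right) with reads in all 6 libraries, in RPKM on a log axis; each point is a library, squares are the first library set, and asterisks mark members. Bmp4 sits between 10.2 and 19.4, Bmp6 between 3.80 and 5.40 and Bmpr2 between 7.98 and 11.5, while Gdf6 spans 4.75 to 97.2.

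Among the receptor genes, endoglin came closest to a call, in the set-adjusted DESeq2 fit. Eng, which encodes the endothelial co-receptor mutated in hereditary haemorrhagic telangiectasia in humans, had 12838, 7076, 5946 and 4465 normalized counts in KO1 to KO4, against 20412 in WT1 and 10845 in WT2. Eng lay below the wild type of its set in 4 of 4 knockout libraries, as did 10.8% of all tested genes. The groups overlapped, since KO1 lay above WT2. The log2 difference was −1.09 ± 0.47 (SE, limma adjusted p = 1.00). Set-adjusted it was −0.82 ± 0.20 (SE, limma adjusted p = 0.999), with an adjusted p of 0.0831 by DESeq2 and 0.999965 by edgeR. The summed endothelial markers differed by log2 −0.75, 0.14, −0.08 and −0.57 in KO1 to KO4 relative to the wild type library of their set, where Eng differed by −0.67, −0.62, −0.87 and −1.28. The summed counts of 6 lymphatic endothelial markers were 54665, 29146, 25233 and 23983 in KO1 to KO4, against 76205 in WT1 and 54820 in WT2. They differed by log2 −0.48, −0.91, −1.12 and −1.19 within the sets. Of the 6 markers, none of them at 0, 4 had all knockout libraries below both wild type libraries, as did 2.32% of all tested genes. The part of either marker list in the difference of Eng was not tested. Without WT1 the unadjusted log2 difference of Eng was −0.63, and without WT2 it was −1.54. Tgfbr3, the gene of the co-receptor betaglycan, had 4675 to 14375 counts in the knockout libraries, against 3418 in WT1 and 11611 in WT2. At 10.01 RPKM Bmpr2 stood below Eng (62.7), Tgfbr3 (38.3), Bmpr1a (25.1) and Acvrl1 (23.9), which encodes the endothelial type I receptor ALK1. The range of Bmpr2 overlapped with that of Acvr1 (10.4). This place depends on the annotated exon length, 17983 nt for Bmpr2 against 6351 nt for Bmpr1a and 4265 nt for Acvrl1. By mean normalized counts Bmpr2 (7125) lay above Bmpr1a (6274) and Acvrl1 (4090), and below Eng (10264) and Tgfbr3 (9801).

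The signalling Smads, antagonists, further inhibitors, further targets and E proteins showed small differences between genotypes. The set-adjusted log2 differences (SE) were 0.02 ± 0.08 for the common mediator Smad4 and −0.05 ± 0.07 for Smad5. They were −0.09 ± 0.14 for Fstl1, a secreted BMP-binding protein, and −0.04 ± 0.07 for Bmp1, a protease that cleaves the antagonist chordin. For the nuclear repressor Ski the difference was −0.02 ± 0.08, and for the ubiquitin ligase Smurf2 −0.13 ± 0.09. It was 0.19 ± 0.22 for the endothelial BMP target Atoh8 and 0.03 ± 0.12 for Runx2, a transcription factor of bone. The Id partners Tcf4 and Tcf12 differed by −0.15 ± 0.16 and −0.07 ± 0.08. A p that misses the threshold with 4 and 2 libraries does not show that these genes were equal.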

How the data were processed

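The deposited table holds 1 normalized count signal per gene and library, that is, reads scaled by the authors with 1 factor per library, per the series design text and the values themselves. Per the submitters' processing notes, Trimmomatic 0.36, STAR 2.6.0c, featureCounts of Subread 1.6.1 and GRCm38.p6 were used; the design text names other tools and DESeq2, and the sources used here do not say which of them made it, nor whether strand was used. All values were whole multiples of the smallest value above 0 in their library (100% within a tolerance of 1e-06 of the value in reads), which gave back the reads. Libraries of 1 genotype always differed by more than sampling noise (chi-square per gene 28.4 to 435).

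Genes averaging at least 10 normalized counts were tested with limma 3.58.1 (R 4.3.3, trended eBayes) on log2(normalized count + 1), genotype as the sole term; this scale understates changes of low genes. EdgeR 4.0.16 (quasi-likelihood) and DESeq2 1.42.0 ran on the recovered reads. Lengths and positions are from GENCODE M21 (GRCm38), which may differ from the authors' annotation. The library sets were defined from the values. The fits were also run on simulated data, and no result given here rests on that run. The members, lists, library sets and rules for named genes (all members, the 2 most abundant tested genes of each pathway class, any gene called, and the 3 nearest to Id1) were chosen with earlier results of these data known.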

Additional observations from a re-analysis of the deposited data

Results flagged for a closer look

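In 6 of the 25 named genes 1 knockout library lay far from the other 3, as judged by Dixon's test, which flags about 1 in 20 groups by chance. That library was KO1 each time. It was the lowest for Bmpr2, at 6687 normalized counts. It was the highest for Smad6 (1132), Smad7 (1942), Zmpste24 (5079), the protease gene Bmp1 (26777) and the ubiquitin ligase gene Smurf2 (8169). WT1, the other library of the first set, lay on the same side of WT2 in all 6 genes.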

How the results depend on the processing

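Of the 10 members 0 were called, and of the wider list 0, under all 19 alternatives. Among all tested genes the number called was 1, against 7 with DESeq2 and genotype alone, 50 with DESeq2 and 2 with edgeR with the library set as a term, 2 with a pseudocount of 8, 0 with the replicate block, 0 in the second set alone and 0 to 2 without 1 library. Of 190 alternative values of the members 173 kept their sign. The cause of the other signs was not tested. With the library set as a term (limma, edgeR, DESeq2) the log2 difference was −0.032, −0.0044 and −0.010 for Id3, 0.063, 0.072 and 0.069 for Smad6, −0.046, −0.039 and −0.045 for Smad5, −0.017, −0.0097 and −0.016 for Ski and −0.066, −0.059 and −0.065 for Tcf12. With the replicate block it was 0.030 for Id1, 0.18 for Smad6, 0.0087 for Smad7, −0.023 for Smad5 and −0.095 for Tcf12. The second set alone gave −0.21 for Bmper, −0.0048 for Smad5, 0.052 for Tcf4 and −0.015 for Tcf12, and edgeR and DESeq2 with genotype alone 0.19 and 0.18 for Gdf6.

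Without 1 library in turn, the log2 difference ranged from −0.056 to 0.0081 for Id1, −0.12 to 0.20 for Id3, −0.24 to 0.021 for Bmp6, −0.60 to 0.20 for Smad6, −0.39 to 0.049 for Smad7 and −0.10 to 0.55 for Bmper. It ranged from −0.61 to 1.27 for Bmp2, −0.21 to 1.55 for Tgfbr3, −0.018 to 0.23 for Smad4, −0.10 to 0.18 for Smad5, −0.79 to 0.22 for Bmp1, −0.022 to 0.10 for Ski, −0.88 to 0.17 for Smurf2, −0.020 to 0.32 for Runx2 and −0.19 to 0.40 for Tcf12. With the sign kept, it ranged from −0.71 to −0.20 for Bmp4, 0.15 to 1.58 for Id2, 0.52 to 1.39 for Id4, −1.54 to −0.63 for Eng, −1.60 to −0.13 for Gdf6, −0.43 to −0.019 for Fstl1, 0.0093 to 0.64 for Atoh8 and −0.22 to −0.023 for Tcf4. The samples share a number in their titles and nothing in the labels pairs them; deviations from the group means correlated at 0.84 (KO1 with WT1) and 0.56 (KO2 with WT2), but also at 0.67 (KO3 with WT2) and 0.53 (KO4 with WT2), which share no number. With 2 wild type libraries, each value against the other one is its mirror image by construction.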
